A study of Xenopus laevis with 14 samples.

Results

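The genes hmx2 and hmx3 encode homeodomain transcription factors of the H6 family and lie next to each other on 1 scaffold. They were taken by their symbols from the 19921 genes of the RNA-seq table, where each symbol had 1 line, so the pair is 2 of 19921 genes. The pair was chosen by the genes' levels in these same 10 libraries. Their own differences are therefore given as a description, without a test.

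Hmx2 and Hmx3 are best known from the mouse, where they act together in the vestibular part of the inner ear and in the hypothalamus. In zebrafish, members of the pair are also expressed in spinal interneurons, among them V1 neurons. V1 neurons are inhibitory and arise from the progenitor domain that expresses the zinc-finger factor prdm12. They are marked by the homeobox gene en1.

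RNA was sequenced from Xenopus laevis animal caps, pieces of embryonic ectoderm cut at about stage 10 from embryos injected with RNA at the 2-cell stage. Wild-type caps had no treatment. The other 4 groups all received noggin RNA, which blocks BMP signals and turns ectoderm neural, and retinoic acid, which makes neural tissue posterior. Caps with these agents and nothing else are called posterior neural caps here. A further group added prdm12 RNA. The last groups added RNA of a fusion protein instead, in which prdm12 carries either VP16, a domain that activates transcription, or engR, the repressor domain of engrailed. Each of the 5 groups had 2 libraries, numbered 1 and 2, with 11986697 to 15893668 reads on genes per library. For engR replicate 1 the labels conflict, since its treatment entry gives VP16 while its title gives engR, and it was placed by its title. The name of its column also gives engR. Its value for en1 was 268, against 264 in engR replicate 2 and 1.15 and 1.96 with VP16. In bulk RNA, fewer cells of a type and less RNA per cell cannot be told apart.

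The tissue labels were checked with marker lists. A normalized read is a read multiplied by 1 scaling factor for its library. Summed over 20 neural genes, levels lay between 3439 and 4824 normalized reads in wild-type caps and between 106511 and 152555 in posterior neural caps. They lay between 169612 and 215381 where prdm12 was added, between 43840 and 95748 for VP16 and between 188946 and 205574 for engR. The gene tubb2b alone gave 92009 and 108120 of the prdm12 sums and 12333 and 37155 of the VP16 sums. Members of the list did not move together with VP16. Their median log2 difference from posterior neural caps was -1.26, but the progenitor gene nes went from 2098 and 1978 to 5549 and 4300. Limma at an adjusted p under 0.05 called none of the 20 with prdm12 or VP16 against posterior neural caps. Of all genes 0.162% passed with prdm12 and none with VP16, so these counts alone do not show that neural levels were unchanged. With the replicate number as a block, nes rose and the neurofilament gene nefl fell with VP16 (limma adjusted p = 0.0378 and 0.0322). Of all genes 0.108% rose and 0.232% fell there. None of the 20 passed with prdm12 in that fit, where 0.935% of all genes did. With engR none of the 20 rose and 2 fell, where 2.41% of all genes rose and 1.02% fell. The 2 that fell were the progenitor genes sox3 and msi1 (limma adjusted p = 0.0214 and 0.0161). With the block none rose and 4 fell with engR, where 7.21% and 3.72% of all genes did. The 22 epidermal genes summed to between 617131 and 635629 in wild-type caps and to between 23345 and 64091 in the 8 neuralized libraries. The 11 muscle genes summed to between 1905 and 6488 and the 13 endodermal genes to between 813 and 25747 over all libraries, the latter highest with engR (22194 and 25747). Of these endodermal sums with engR, the gene a2m alone gave 12863 and 18237.

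In the deposited table hmx3 (ENSXETG00000009562) covers positions 762668 to 765746 of scaffold GL172952.1, a span of 3079 bp. Its neighbour hmx2 (ENSXETG00000027771) covers positions 788529 to 790210, a span of 1682 bp. Between them lie 22782 bp with no annotated gene. Flanking genes are the acyl-CoA dehydrogenase gene acadsb, 25698 bp from the hmx3 side, and the mitotic checkpoint gene bub3, 12122 bp from the hmx2 side. The table uses Xenopus tropicalis gene models, so reads of any homeologs of a Xenopus laevis gene share 1 line. In RefSeq genes of Xenopus laevis v10.1 the order bub3, hmx2, hmx3, acadsb and ikzf5 is also found on chromosome 7L. The hmx2 gene there bears the symbol hmx2.S. On chromosome 7S an unnamed gene lies between bub3.S and hmx3.S, and ikzf5.S follows hmx3.S. The only other gene in the table with an hmx symbol, hmx1 (ENSXETG00000015419), lies on scaffold GL173219.1, at positions 413800 to 416667.

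Both genes of the pair were low in posterior neural caps, higher where prdm12 was added and highest among the neuralized groups with the repressor fusion. With VP16, every library of both genes lay below those with prdm12 or engR. For hmx3, libraries 1 and 2 had 94.0 and 26.3 normalized reads in wild-type caps and 17.1 and 25.9 in posterior neural caps. The prdm12 libraries had 615 and 648, the VP16 libraries 41.5 and 7.85 and the engR libraries 1777 and 2125. Both engR libraries lay above both prdm12 libraries, and both prdm12 libraries above the other 6. For neither gene of the pair was the share of all genes with such an order of libraries counted. Among wild-type, posterior neural and VP16 caps the libraries lay close together or overlapped, so no order is given for these 3 groups.

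As a mean ± SD over 2 libraries, hmx3 stood at 21.5 ± 6.26 normalized reads in posterior neural caps, 632 ± 23.4 with prdm12 and 1951 ± 246 with engR. The log2(value + 1) difference from posterior neural caps was 4.84 with prdm12, with 5.09 in replicate 1 and 4.59 in replicate 2. With engR it was 6.46, with 6.62 and 6.30 in the replicates, and 6.59 without engR replicate 1. The engR comparison placed hmx3 at rank 3 of 12937 genes from the top by log2 difference, and the prdm12 comparison at rank 10. Levels of hmx3 with engR were 3.09 times those with prdm12. With VP16 the mean was 24.7 ± 23.8, a log2 difference of -0.19 from posterior neural caps whose replicates went opposite ways (1.23 and -1.61). The comparisons of the 3 constructs with posterior neural caps share the same 2 control libraries.

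The pattern of hmx2 had a further high point in untreated ectoderm. Libraries 1 and 2 had 255 and 81.0 normalized reads in wild-type caps and 0 and 2.51 in posterior neural caps. The prdm12 libraries had 22.2 and 38.8, the VP16 libraries 16.1 and 1.96 and the engR libraries 99.1 and 146. Wild-type and engR libraries overlapped, both prdm12 libraries lay below them, and all 4 posterior neural and VP16 libraries lay lower still. The value of 0 in posterior neural replicate 1 allows a level of up to 2.44 normalized reads, the worth of 3 reads.

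Because posterior neural caps held only 3 reads of hmx2 in all, ratios of recovered reads are given with their 95% counting intervals, which cover counting error only. The ratio to posterior neural caps was 25.03 with prdm12 (8.22 to 124), from 71 reads against 3. With engR it was 99.3 (33.6 to 485), from 237 reads. For VP16 the ratio was 6.85 (1.96 to 36.7), from 16 reads, most of them in replicate 1. The VP16 and posterior neural libraries of hmx2 overlapped, and the replicates went opposite ways (log2 differences 4.10 and -0.25). The interval leaves this spread between libraries out, so no direction is given for VP16. Without VP16 replicate 1, the log2 difference from posterior neural caps was 0.66, against 1.93 with both. In posterior neural caps hmx2 stood at 0.00773 of its wild-type level (0.00159 to 0.0228), from 3 reads against 267. The engR level of hmx2 was 4.02 times the prdm12 level, and its log2 difference from posterior neural caps was 6.02, or 6.30 without engR replicate 1.

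**Figure D1:**
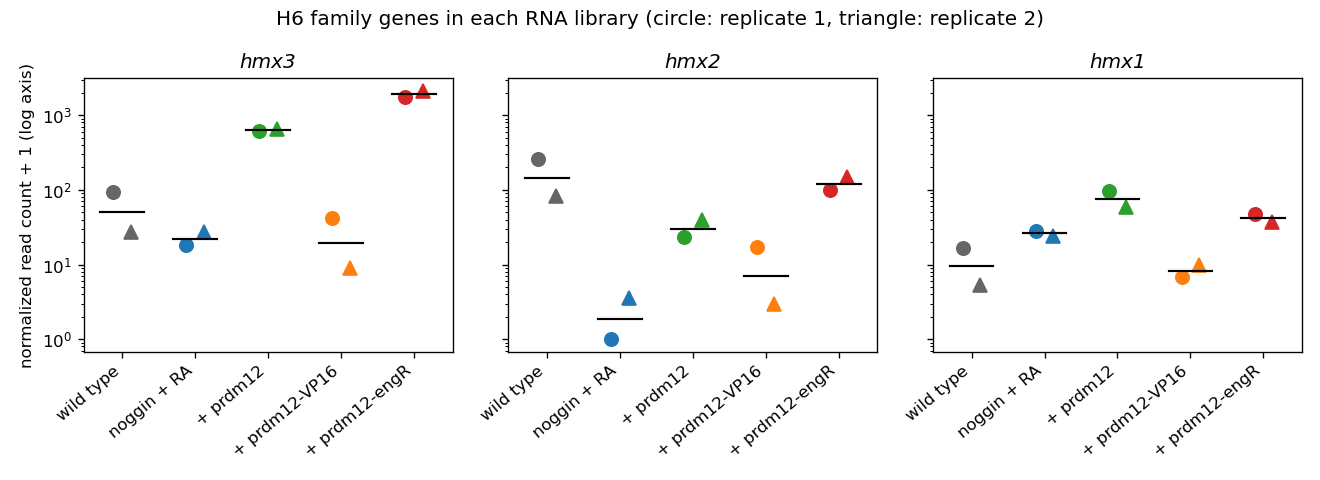
Normalized read count + 1 (log axis) of hmx3, hmx2 and hmx1 in each of the 10 RNA libraries. Points are single libraries and the black line is the mean on the log2 scale. The engR libraries have the highest hmx3 values, 1777 and 2125 reads, whereas for hmx2 the wild-type and engR libraries overlap.

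The proportion of the 2 genes in wild-type caps differed from that with prdm12 and engR. Gene length cancels when their ratio is compared between libraries. Reads of hmx3 over reads of hmx2 stood at 27.8 and 16.7 with prdm12 and at 17.9 and 14.5 with engR. In wild-type caps the ratio was 0.368 and 0.324, and with VP16 it was 2.57 and 4.01. It was 10.3 in posterior neural replicate 2 and has no value in replicate 1, where hmx2 was at 0. The wild-type ratios lay below all those with prdm12 and engR, which overlapped each other. How often other gene pairs separate so was not counted. The ratio of VP16 replicate 2 rests on 8 reads of hmx3 and 2 of hmx2, and the posterior neural ratio on 31 and 3.

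Replicates of the pair also differed together in 2 groups. In wild-type caps, replicate 1 was 3.58 times replicate 2 for hmx3, 3.15 times for hmx2 and 3.63 times for hmx1. Between 2.35% and 2.92% of the 12937 genes had a replicate 1 value at least as far above replicate 2 in those caps. With VP16 the gap was 5.28 times for hmx3, from 36 and 8 reads (95% counting interval 2.41 to 13.1), and 1.79% of genes lay at least as high. For hmx2 it was 8.21 times, from 14 and 2 reads (1.89 to 74.4). For hmx1 the VP16 replicates went the other way, with 5.76 reads in replicate 1 and 8.84 in replicate 2. The summed level of the 20 neural genes was 43840 in VP16 replicate 1 and 95748 in replicate 2, and its part in the gap was not tested.

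The family member hmx1, which works in the eye and ear of the mouse, had its highest mean with prdm12. Its mean was 10.1 ± 8.13 normalized reads in wild-type caps and 25.1 ± 2.41 in posterior neural caps. It was 76.0 ± 25.7 for prdm12, 7.30 ± 2.18 for VP16 and 41.5 ± 7.69 for engR. All tests were limma across 12937 genes, with Benjamini-Hochberg adjustment and a threshold of 0.05. Posterior neural against wild-type caps gave adjusted p = 0.0887 for hmx1, where 43.7% of all genes passed. With the replicate number as a block the limma adjusted p of hmx1 was 0.0455, where 58.3% passed (29.6% higher and 28.7% lower). Its differences from posterior neural caps did not pass with prdm12 (log2 difference 1.52 ± 0.61 SE, adjusted p = 0.699), VP16 (-1.68 ± 0.61, adjusted p = 0.621) or engR (0.69 ± 0.61, adjusted p = 0.709). Nor did the difference of hmx1 between engR and prdm12 (-0.83 ± 0.61). Levels of hmx1 were lower with VP16 than with prdm12 (-3.20 ± 0.61, adjusted p = 0.0308), where 3.86% of all genes passed (3.11% lower and 0.758% higher). They were also higher with engR than with VP16 (2.37 ± 0.61, adjusted p = 0.0416), where 12.1% passed (8.7% higher and 3.42% lower). Of 20 alternatives, 12 called the first of these differences and 7 the second, and edgeR's quasi-likelihood test gave adjusted p = 0.0415 and 0.0533.

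The pair was set beside its neighbours on the scaffold, taken as the 5 annotated genes on each side. Of these 10, 9 passed the minimum mean of 10 normalized reads and were tested. The receptor gene gpr26, at 0 to 4.12 reads, was not. None of the 9 passed with prdm12 against posterior neural caps, a comparison in which 0.162% of all genes passed (0.147% higher and 0.0155% lower). None passed with engR, where 3.43% passed (2.41% higher and 1.02% lower). With VP16 0 of all 12937 genes passed limma, 868 had an unadjusted p under 0.05, edgeR called 0 and DESeq2 127.

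On the hmx3 side, acadsb had 268 ± 106 normalized reads in posterior neural caps, 464 ± 154 with prdm12 and 490 ± 47.9 with engR (log2 difference 0.92 ± 0.39 for engR, adjusted p = 0.300). The blocked limma fit called acadsb with engR (adjusted p = 0.0326), where 7.21% of all genes rose and 3.72% fell. That is 1 of the 9 neighbours, near the share over all genes. The kinase gene pstk and the zinc-finger gene ikzf5 had log2 differences of 0.43 ± 0.44 and 0.03 ± 0.26 with engR. On the hmx2 side, bub3 had 396 ± 20.6 reads in posterior neural caps and 393 ± 64.8 with engR (-0.02 ± 0.30). The carboxypeptidase family gene cpxm2 had 86.4 ± 18.1 and 89.2 ± 22.7 (0.04 ± 0.70). The median log2 difference of the 9 neighbours was 0.08 with prdm12 and 0.06 with engR, against 0.03 over all genes in both comparisons.

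In posterior neural against wild-type caps, of the 9 neighbours 1 rose and 3 fell. That is near the share over all genes, of which 43.7% passed (22.3% higher and 21.4% lower). With the block, where 29.6% of all genes rose, ikzf5 rose too (limma adjusted p = 0.0417). From 0 reads in both wild-type libraries, cpxm2 rose to 99.2 and 73.6. The neighbours that fell were oat.2, an ornithine aminotransferase gene, XB-GENE-5842390 and the unnamed ENSXETG00000031289. Levels of XB-GENE-5842390 fell from 10306 and 4041 reads to 5.69 and 3.35 (log2 difference -10.22 ± 0.73, adjusted p = 2.4e-05). The unnamed gene fell from 308 and 257 to 17.1 and 3.35 (adjusted p = 0.00798), and oat.2 from 355 ± 226 to 79.6 ± 34.5 (adjusted p = 0.0234).

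**Figure D2:**
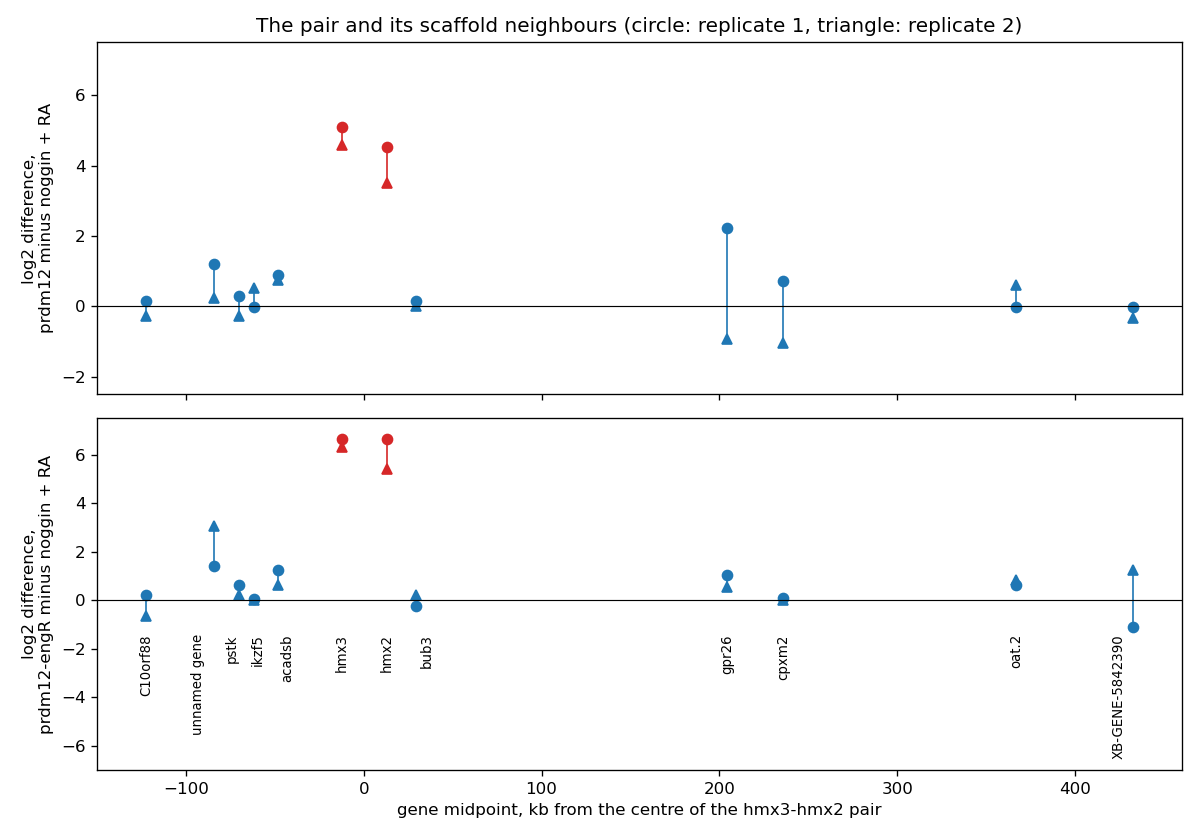
Log2 difference from posterior neural caps within replicate 1 (circle) and replicate 2 (triangle) for hmx3 and hmx2 (red) and their 10 neighbours (blue), against distance from the centre of the pair in kb. With engR the pair lies at 6.46 and 6.02 on average, and bub3, its nearest neighbour, at -0.02.

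Likeness to the pair was measured as the root mean square difference of log2(value + 1) profiles over the 10 libraries, each centred on its own mean. Over these libraries the closest profiles to hmx3 were those of nxph2, which encodes a secreted ligand of neurexins (distance 0.81 log2 units), the surfactant protein gene SFTPB (0.87) and cngb3, a cyclic nucleotide-gated channel subunit gene (0.90). They were followed by the potassium channel gene kcng2 (1.04), the RNA editing family gene adarb2 (1.06), the thyrotropin-releasing hormone gene trh (1.09), the sugar transporter gene slc5a1.2 (1.11) and the integrin gene itga8 (1.12). Mean levels of nxph2 were 0 in wild-type and posterior neural caps, 31.4 normalized reads with prdm12, 0.575 with VP16 and 88.5 with engR.

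By this measure over 10 libraries, none of the 8 genes most like hmx2 was among those 8. As follows from their choice by likeness to hmx2, all had higher means in wild-type than in posterior neural caps. They were the cytokine gene il17c (distance 0.92 log2 units), the transporter gene slc44a4 (1.07), the membrane protein gene pllp (1.08), the signalling adaptor gene bcl10 (1.12), macc1 (1.18), the lipoxygenase gene aloxe3 (1.19), the potassium channel gene kcnj16 (1.21) and the tetraspanin gene tspan1 (1.23). Mean levels of il17c were 437 normalized reads in wild-type and 2.495 in posterior neural caps. They were 28.6 for prdm12, 4.27 for VP16 and 124 for engR. Over all 10 libraries hmx2 stood at rank 426 of 12101 genes by distance from hmx3, and over the 8 neuralized libraries at rank 27. From hmx2, hmx3 stood at rank 1443 and rank 14. By correlation the ranks from hmx3 were 597 and 174 and those from hmx2 1058 and 25. The named genes depend on the measure too. By correlation over 10 libraries 4 of the 8 beside hmx3 and 3 of the 8 beside hmx2 were again among the 8 nearest. By distance over the neuralized libraries 4 and 2 were, and by correlation over those libraries 2 and 0.

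Beside hmx2 the epidermal list moved in part. Of 21 tested epidermal genes 20 fell and 1 rose in posterior neural caps, where hmx2 went from 255 and 81.0 to 0 and 2.51 reads. Of all genes 21.4% fell and 22.3% rose there. In the engR libraries 5 of 21 epidermal genes rose, where 2.41% of all genes did, or 10 with the block, where 7.21% did. The median log2 difference of the 21 from posterior neural caps was 1.99 with engR, 0.48 with prdm12 and -0.53 with VP16. The E-cadherin gene cdh1 had 931 and 258 normalized reads in posterior neural caps, 352 and 58.9 with VP16 and 3218 and 3291 with engR. It did not pass limma with either construct (adjusted p = 0.829 for VP16 and 0.163 for engR), so it was not among the 5. The list's sum was higher with both constructs than in posterior neural caps, so for VP16 it went against the median. For replicates 1 and 2 it was 30985 and 23345 in posterior neural caps, 39476 and 33643 with engR and 64091 and 43824 with VP16. In VP16 replicate 1 the simple-epithelium keratin genes krt8 and krt18 made up 31424 and 22947 reads of that sum. At most 2 of the 22 epidermal genes were at 0 in any library, and the part of epidermal cells in the hmx2 levels was not tested.

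**Figure D3:**
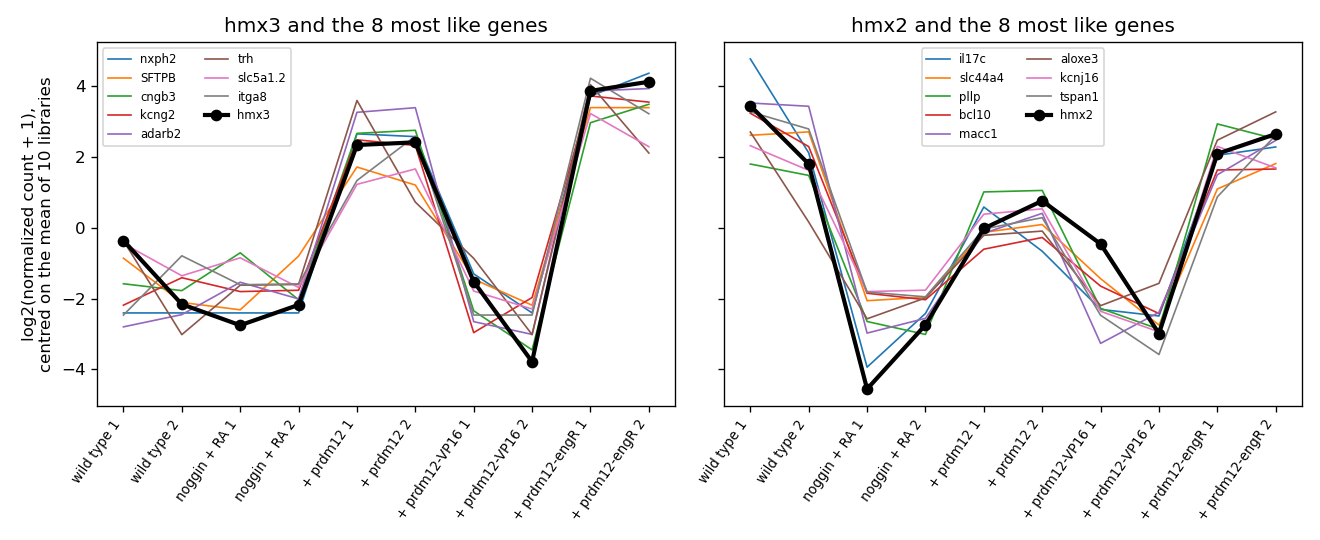
Log2(normalized count + 1) of hmx3 (left) and hmx2 (right) in black, with the 8 genes of the smallest distance in colour, centred on the mean of the 10 libraries. As follows from that choice, the 8 genes beside hmx2 are higher in wild-type than in posterior neural caps. On average il17c is at 437 and 2.495 reads there, and nxph2, beside hmx3, is at 0 in both.

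Further lists of genes from the settings in which Hmx genes are known were read in the same test. The lists were chosen with earlier results of these data known, so their counts beside the shares of all genes are a description. The V1 list joins genes of the inhibitory neurons in which zebrafish express the pair. Of its 13 tested members, 3 rose with prdm12 and none fell, where 0.147% of all genes rose, with a median log2 difference of 2.30 against 0.03 over all genes. The interneuron factor gene pax2 rose from 59.2 ± 23.9 to 1434 ± 84.7 normalized reads (4.63 ± 0.50, adjusted p = 0.0197), en1 rose from 4.88 and 1.67 to 482 and 299, and slc32a1, the GABA and glycine vesicle transporter gene, rose from 34.2 and 82.0 to 4660 and 3171. With the replicate block 6 rose, where 0.788% of all genes did. With engR 5 of 13 rose and none fell, where 2.41% of all genes rose (median 2.66, against 0.03). Among the 5 was pax8, a partner of pax2, at 42.7 ± 20.1 and 378 ± 50.1 (3.19 ± 0.50, adjusted p = 0.0183). Levels of foxd3, a forkhead gene of neural crest and V1 neurons, rose from 47.2 and 18.4 to 1004 and 717 there (adjusted p = 0.0365). With VP16 none of 13 passed, but neither did any of all 12937 genes, so this count is not particular to the list. The list median with VP16 was -1.39 against -0.0041 over all genes.

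Without engR replicate 1, whose labels conflict, the engR comparison called 4 genes in all and none of any list described here. The same counts for these lists came without engR replicate 2. Without posterior neural replicate 1 or 2 it called 52 and 46 genes. The prdm12 comparison called 0 genes without either engR library, in a fit whose libraries share 1 estimate of the spread. It also called 0 without either prdm12 library or without posterior neural replicate 2, 1 without posterior neural replicate 1, and 8 and 10 without wild-type replicates 1 and 2. Without engR replicate 1 the limma adjusted p of pax2 was 0.0543 with engR and 0.0805 with prdm12. In the engR libraries 5 of 10 tested endodermal genes also rose, where 2.41% of all genes did, and their part in the list counts was not tested.

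Of 10 tested dorsal excitatory interneuron genes none passed with prdm12, where 0.162% of all genes did. With engR 2 rose, where 2.41% of all genes rose. They were tlx3, a selector of glutamatergic dorsal neurons, from 8.94 and 8.37 to 204 and 222 normalized reads (adjusted p = 0.0114), and DRGX, a gene of sensory and dorsal horn neurons, from 7.85 ± 1.91 to 130 ± 4.03 (adjusted p = 0.0192). Outside the engR libraries DRGX stood at 1.09 to 18.4 reads, so it reached the minimum mean of 10 only through engR. Its call with engR therefore follows in part from that filter. With the block tlx3 also passed with prdm12 (107.7 ± 21.7 reads, limma adjusted p = 0.0262), where 0.788% of all genes rose. The list median was -0.09 with engR and 0.48 with prdm12.

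The otic placode and vesicle list, for the tissue in which the mouse pair is best known, had 26 tested genes. With engR 3 rose and none fell, where 2.41% of all genes rose and 1.02% fell. These were pax2, pax8 and gata3, a factor of ear, epidermis and V2 neurons, from 74.4 ± 27.1 to 1349 ± 356 normalized reads (4.19 ± 0.48, adjusted p = 0.0075). With the block 6 rose and 3 fell with engR, where 7.21% of all genes rose and 3.72% fell. Of the 26, pax2 alone rose with prdm12, where 0.147% of all genes rose. The list median was 0.11 with engR and 0.20 with prdm12. The inner ear genes otop1 and otog encode an otoconia-forming proton channel and a protein of the acellular membranes of the ear. Their highest values were 20.7 reads for otop1, with VP16, and 27.8 for otog, with engR. From posterior neural caps to engR, otog went from 1.63 and 0.84 to 10.4 and 27.8 reads. Over the same groups otop1 went from 7.32 and 5.02 to 10.4 and 3.09. The 31 genes in the table summed to between 12527 and 15618 with engR and 13207 and 17081 in posterior neural caps. In posterior neural against wild-type caps 14 of the 26 rose and 8 fell, where 22.3% and 21.4% of all genes did, with a median of 2.58. The SOX factor gene sox9 rose from 59.6 and 40.5 to 1112 and 1125 reads (adjusted p = 8.6e-06), and the placode gene dlx3 fell from 944 and 836 to 0 and 0.84 (adjusted p = 1.4e-05).

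Of 10 tested hypothalamus genes 3 rose and 1 fell with engR, where 2.41% of all genes rose and 1.02% fell. The neuropeptide gene sst, for somatostatin, rose from 10.6 and 9.20 to 4776 and 2026 normalized reads (8.16 ± 0.76, adjusted p = 0.00379). The transcription factor gene sim1 rose from 32.5 and 14.2 to 318 and 338 (3.86 ± 0.56, adjusted p = 0.0136) and avp, for vasopressin, from 13.8 and 17.6 to 217 and 126 (adjusted p = 0.0214). The neuropeptide gene vip fell from 344 and 238 to 25.03 and 37.1 (adjusted p = 0.0375). Outside the engR libraries avp stood at 0 to 17.6 reads, so it reached the minimum mean of 10 only through engR. Its call with engR therefore follows in part from that filter. With prdm12 none of 10 passed, where 0.162% of all genes did. With the block sst rose and vip fell with prdm12 (limma adjusted p = 0.016 and 0.0295), where 0.788% of all genes rose and 0.147% fell. The regional marker nkx2-1 was at 0 in 9 of 10 libraries, and bsx and gnrh1 were at 0 in 8 of 10 each.

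Homeobox genes of the wider NK-like class, to which the H6 family belongs, gave the family background, with 22 tested genes besides the pair. With engR 2 rose (en1 and tlx3) and none fell, where 2.41% of all genes rose. With the block 3 rose and 1 fell, where 7.21% and 3.72% of all genes did. With prdm12 en1 rose and nkx6-1, a ventral progenitor gene, fell from 359 ± 95.4 to 19.0 ± 5.90 normalized reads (-4.18 ± 0.48, adjusted p = 0.0197). Of all genes 0.147% rose and 0.0155% fell with prdm12. The median of the 22 was 0.02 with engR and 0.34 with prdm12. In posterior neural against wild-type caps 6 rose and 11 fell, where 22.3% and 21.4% of all genes did, with a median of -3.02 against 0.02. The 2 other NK-like genes of the hmx scaffold are nkx6-2, which stood at 862 and 692 reads in posterior neural caps and 845 and 716 with engR, and nkx1-2, at 0 to 1.65 reads in every library.

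**Figure D4:**
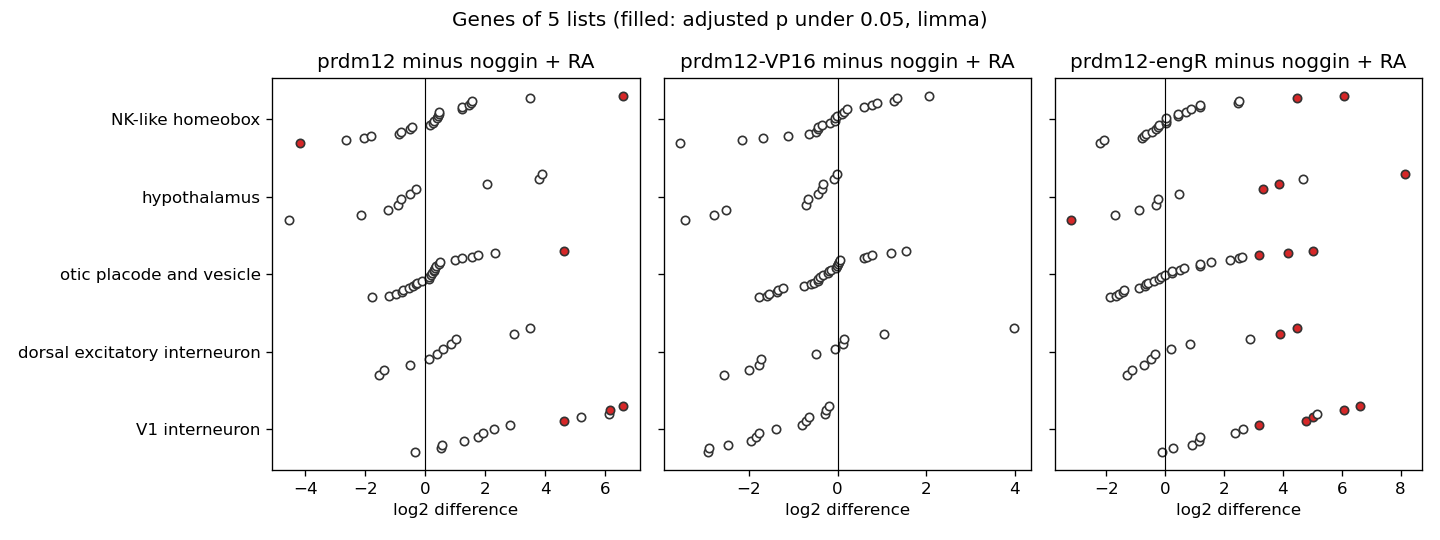
Log2 difference from posterior neural caps for each tested gene of 5 lists, with prdm12, VP16 and engR. Filled points passed limma at an adjusted p under 0.05. The filled points are 4 distinct genes with prdm12, none with VP16, and lie mostly on the higher side with engR.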

How the data were processed

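The deposited expression values are a normalized signal per gene, which the authors deposited as read counts over a scaling factor for each library, judged from the values. Dividing by the smallest step of each library gave whole reads for 100.0% of values (tolerance 0.05 reads). The library kit was for mRNA and is non-stranded, per the labels' protocols. The submitters' processing notes list Bowtie2, Bowtie, edgeR and HOMER, with no version or role. For the gene counter and the builds, the entry is "not given in the sources used here". Wild-type columns carry a code and were matched by elimination, since every other column names its construct. Of tallied records, 23.8% to 44.0% were not uniquely aligned. The 5 special counter lines were kept out of all tests. The ChIP peak lists were not used here, because their scaffolds belong to a build without gene coordinates in the sources used.

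Values were tested as log2(value + 1) by limma 3.58.1 (R 4.3.3, intensity trend). All 10 libraries entered 1 fit of 12937 genes whose mean reached 10, with a term for group and 5 residual degrees of freedom. Tests were two-sided, Benjamini-Hochberg adjusted over all genes, threshold 0.05. A difference on this scale understates the change of low genes. The pair and the lists were chosen with earlier results of these data known. Named genes were the pair, hmx1, 5 scaffold genes on each side, the 8 genes most like each member and up to 4 genes per list with the smallest p. Other list members were named after their values were seen, as markers at or near 0, as scaffold genes, as large parts of a sum or, for cdh1, as an example.

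Alternatives were pseudocounts of 0.25 and 4, no filter or a mean of 50, quantile and median ratio scaling, no trend, the 2 compared groups alone, edgeR 4.0.16, DESeq2 1.42.0, leaving out each library and the replicate number as a block. For each of the 10 pairs of groups, replicate 1 minus replicate 2 was correlated between the groups over genes (0.222 to 0.791), so the numbers were taken to pair the libraries, a decision from the data. Separate cultures for the replicates are not named in the labels. The p-values then reflect the spread between these libraries alone, which may be technical.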

Additional observations from a re-analysis of the deposited data

Results flagged for a closer look

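Both prdm12 and both engR libraries lay above both posterior neural libraries (noggin and retinoic acid) for hmx1, and both VP16 libraries lay below. This order, with constructs going opposite ways, is why hmx1 was flagged, and the share of all genes with it was not counted. The tests that follow use the same libraries, with 5 and 9 reads of hmx1 for VP16. The difference itself was a log2 difference of -3.20 for VP16 against prdm12 (limma adjusted p = 0.0308, or 0.00919 with the replicate block) and 2.37 for engR against VP16 (limma adjusted p = 0.0416, or 0.014 with the block). None of the 3 differences from posterior neural caps passed on its own.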

How the results depend on the processing

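Leaving out 1 of 2 libraries cannot move a difference between groups by more than their pooled SD, and the block leaves it unchanged. With such recalculations counted, differences of hmx2 and hmx3 moved by at most 1 SD in 135 and by more in 5. These 5 were all of hmx2 against noggin and retinoic acid, where the pseudocount sets the value of a gene at 0 or 3 reads. With a pseudocount of 0.25 its log2 difference was 5.16 with prdm12 and 7.18 with engR, and with a pseudocount of 4 it was 2.71 and 4.61, and -4.86 for noggin against wild type. The number of genes called with prdm12 against posterior neural caps was 21. It was 45 with a pseudocount of 4, 38 without the intensity trend, 250 by DESeq2, 0 with the 2 groups alone and 0 to 33 when 1 library was left out. With VP16 it was 0, against 2 under quantile scaling, 127 by DESeq2 and 0 to 197 with 1 library left out (197 without VP16 replicate 2). With engR it was 444, against 1169 by DESeq2 and 4 to 478 with 1 library left out (4 without either engR library, 52 and 46 without posterior neural replicates 1 and 2). With the replicate block, which uses the pairing of libraries by number, these counts were 121, 44 and 1414. Quantile scaling split the engR calls into 281 higher and 226 lower, against 312 and 132. For posterior neural against wild-type caps the count lay between 4081 and 7548. The cause of these shifts was not tested. Ratios of hmx2 are limited by its 3 reads in posterior neural caps.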
